A study of Mus musculus with 8 samples.

Results

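The ATP-binding cassette (ABC) transporter genes of the mouse heart were examined after loss of Mettl3 from heart muscle cells. Members were the protein-coding genes of the deposited table whose symbol begins with Abca to Abcg followed by a number and whose mean over the 8 libraries was at least 1. This gave 38 genes of 41 listed under such symbols, within a table of 23045 genes. METTL3 is the core enzyme of the complex that writes N6-methyladenosine (m6A) on RNA. There were 4 RNA-seq libraries of Mettl3 lox/lox control hearts, called WT, and 4 of Mettl3 lox/lox hearts with the alphaMHC-MerCreMer transgene, called Mettl3 KO. Both genotypes carried the loxP-flanked gene, and the study's methods state that both received tamoxifen for 7 days at an age between 10 and 16 weeks. The interval between tamoxifen and tissue collection was not given in the sources used here. The Cre recombinase is made in cardiomyocytes from the alphaMHC promoter and becomes active with tamoxifen, so other cells of the heart keep Mettl3. Because the controls lacked the transgene, the effects of the deletion and of the active recombinase cannot be told apart. The labels number the libraries without saying that each is 1 animal, so p-values measure the spread between these libraries.

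ABC proteins bind and hydrolyse ATP on paired nucleotide-binding domains. In most subfamilies this drives lipids, metabolites, peptides or drugs across a membrane. Subfamily A holds lipid transporters, B holds drug exporters and mitochondrial half-transporters, and C holds anion exporters together with the sulfonylurea receptors, which carry nothing and instead regulate potassium channels. Subfamily D carries fatty acyl-CoA into peroxisomes (with a lysosomal member for cobalamin), E and F lack membrane domains and act on ribosomes, and G exports sterols and drugs. In heart muscle the best known members are the sulfonylurea receptors, which couple the energy state of the cell to its membrane potential, and the mitochondrial iron and heme transporters.

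The libraries were similar in size. Normalized read counts, whole-number values that the authors had divided by library factors, summed to between 2839589 and 2916986. The number of reads, which can be read back from the steps between low values, was 2631904 to 3061253. A count of 0 allows 3 reads, which is 2.78 to 3.33 normalized read counts by library, and this limit covers counting error only. Mettl3 itself was at 105, 133, 118 and 107 in WT hearts and at 74, 68, 69 and 78 in Mettl3 KO libraries, so all 8 libraries went with their labels (log2 fold change -0.67, SE 0.10, adjusted p = 0.000184, limma). All 8 cardiomyocyte markers were detected, and they summed to 23530 to 24804 in WT hearts and 21975 to 24710 in Mettl3 KO libraries. Ryr2, the calcium release channel, was the 1 gene of this list called lower (9666 to 10427 and 7975 to 9017, adjusted p = 0.000137, limma), while the list as a whole had a median of 0.06 on the log2 scale. Adipocyte markers summed to 540 to 651 in WT hearts and 471 to 578 in Mettl3 KO libraries. Nearly all of this sum was Fabp4, which was called lower (535 to 644 and 464 to 564, log2 fold change -0.22, adjusted p = 0.0363, limma). The other 4 genes of the list, at 0 to 4 in each library, had higher means in Mettl3 KO than in WT libraries. These 4 did not pass or were too low to test. Erythroid markers summed to 174 to 285 and 123 to 199. The Mettl3 KO libraries differed among themselves in atrial genes. Myl7 was at 23, 65, 90 and 119 and Bmp10 at 0, 195, 158 and 358, while in WT libraries Myl7 did not exceed 26 and Bmp10 was listed at 0.

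The level of the family in normal heart was described first. The 38 members together held 10306 ± 337 normalized read counts in WT hearts (mean ± SD, n = 4). Subfamily C held 32.6% of this sum and subfamily A 30.3%, followed by B with 15.3%, F with 8.0%, D with 7.2%, E with 4.4% and G with 2.2%. Levels were compared between genes per kb of exon, with exon lengths from GENCODE M21 that matched all 38 members by gene identifier. Abcc9, the sulfonylurea receptor of heart and vascular muscle, stood at the top with 260.0 normalized read counts per kb, and its WT libraries did not overlap those of the next gene, Abca8a, at 103. Below it came a group with broad housekeeping roles: the ribosome-associated Abcf1 (95.7) and Abcf2 (93.0), the peroxisomal half-transporter Abcd3 (75.4) and the ribosome recycling factor Abce1 (75.1). The median member had 27.5 per kb. Of 37 neighbouring pairs in this order, 28 had overlapping WT libraries, so most neighbouring ranks do not differ beyond the spread.

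**Figure D1:**
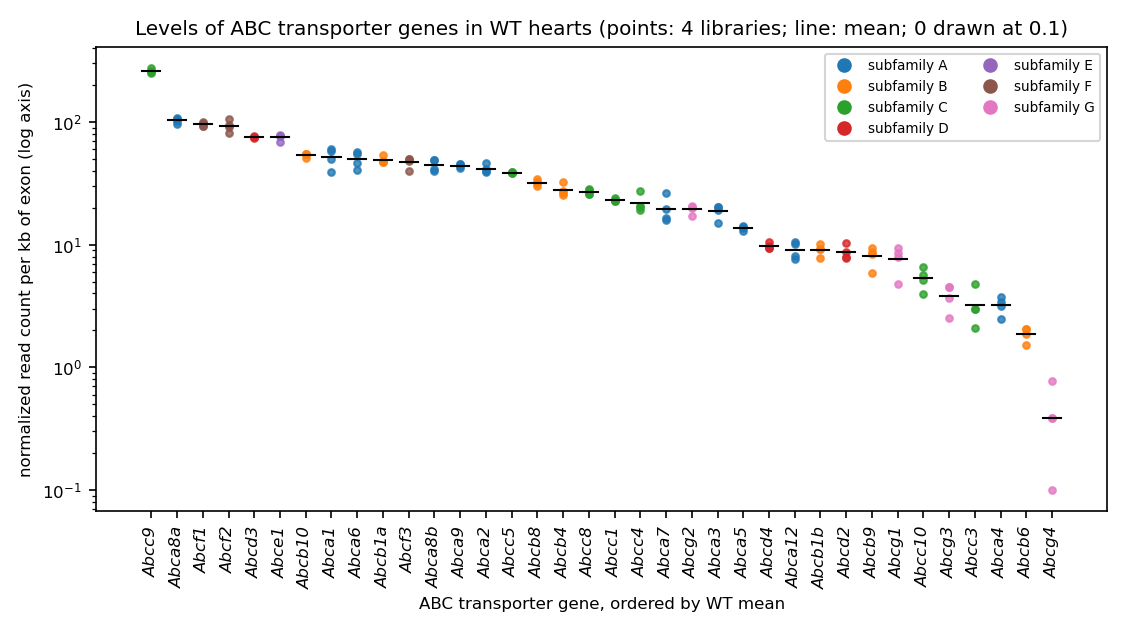
Normalized read count per kb of exon (log axis) for 36 ABC transporter genes in WT hearts, ordered by the mean. Points are the 4 WT libraries, lines their mean and colours the subfamilies, and a value of 0 is drawn at 0.1. Abcc9 at 260.0 per kb lies apart from all others, and Abcg4 at 0.384 per kb is the lowest.

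The lowest members could be read only roughly. Abcg4 was the member nearest the limit, with a mean of 1.5. Its WT libraries had 2, 0, 4 and 2 and its Mettl3 KO libraries 3, 0, 0 and 1, so it was at or near the limit of 3 reads in every library. Just outside the limit were Abca17, with 0, 0, 0 and 2 in WT hearts and 0, 2, 0 and 1 in Mettl3 KO libraries, and Abcc12, with 0, 0, 0 and 3 in WT hearts and 0, 0, 0 and 2 in Mettl3 KO libraries, each with a mean of 0.625. Abca14 had a mean of 0.5, with 0, 1, 2 and 0 in WT hearts and 1, 0, 0 and 0 in Mettl3 KO libraries. These 3 genes were not tested, and their difference between genotypes was not detectable at this depth.

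The genotypes were then compared. In Mettl3 KO hearts 5 ABC transporter genes were lower and 1 was higher. The lower genes were the lipid transporters Abca12 and Abca4, the sulfonylurea receptors Abcc8 and Abcc9 and the mitochondrial transporter Abcb8, and the higher gene was the peroxisomal transporter Abcd2. Abca12 had the largest change and Abcc9 the smallest among these 6. By limma with Benjamini-Hochberg adjustment over all 20313 tested genes, 6 of 38 members (15.8%) had an adjusted p under 0.05, beside 7.91% of all tested genes and 1440 of 14392 protein-coding ones. Lower calls made up 5 of 38 members beside 3.19% of all genes, and the higher call 1 of 38 beside 4.72%. The median mean of the members was 175.1 normalized read counts and that of all tested genes 38.62, and the part of this difference in the share of calls was not tested. The median log2 fold change of the members was -0.06 and that of all tested genes was -0.01. Values below 0 were held by 23 of 38 members, beside 10524 of 20313 tested genes and 7041 of 14392 protein-coding ones. With 1 library left out, the median of the members ran from -0.028 (without WT replicate 3) to -0.091 (without WT replicate 4). The summed level of the 38 members was 10366, 10192, 10735 and 9932 in WT hearts and 9798, 9912, 9420 and 9712 in Mettl3 KO libraries. Each Mettl3 KO library was below each WT library in this sum, by a margin that was lost when any of 6 single members was left out. Without Abcc9, the most abundant, the sums were 7758 to 8433 in WT hearts and 7527 to 8003 in Mettl3 KO libraries, which overlap.

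**Figure D2:**
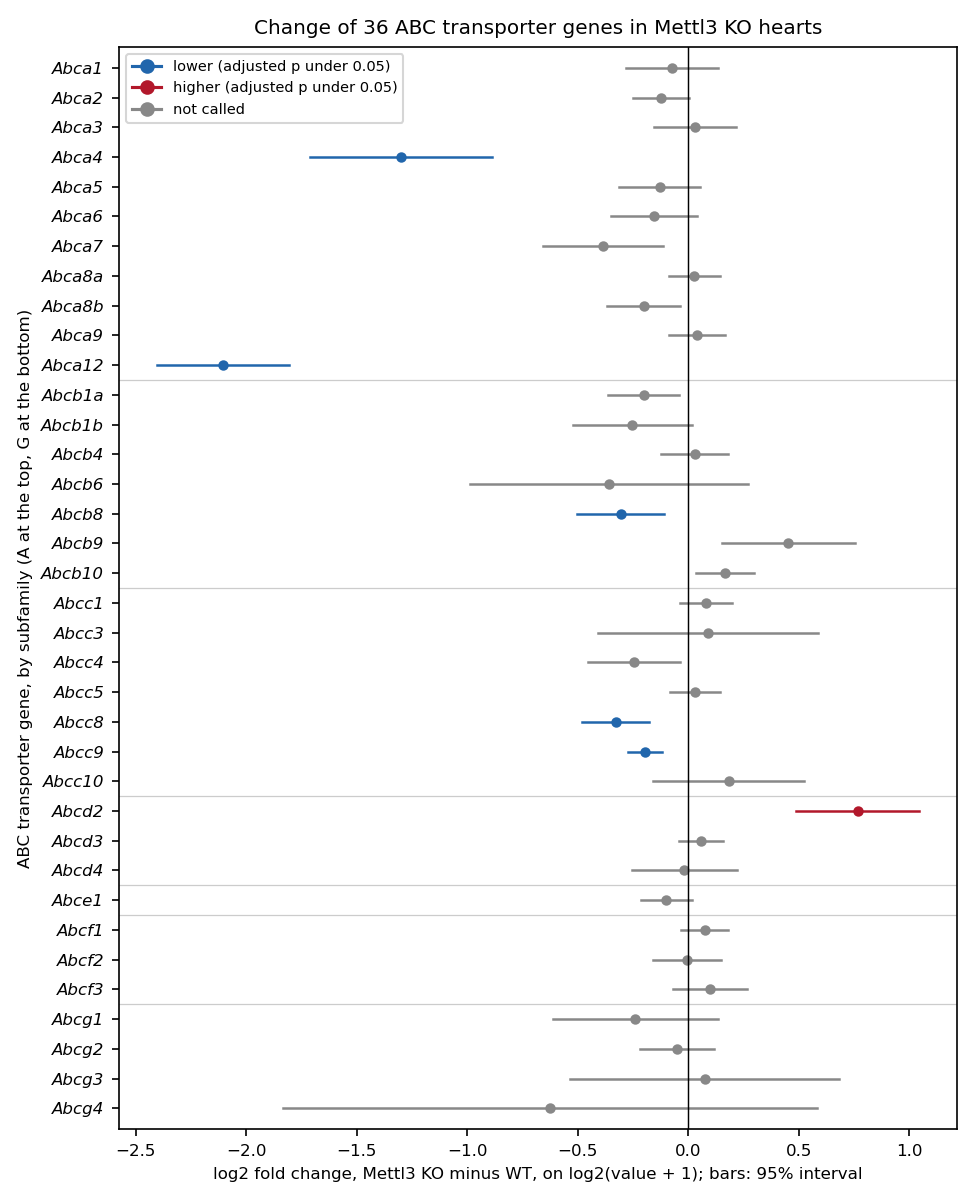
Log2 fold change of 36 ABC transporter genes, Mettl3 KO minus WT, on the log2(value + 1) scale, with 95% intervals as bars. Blue marks the 5 lower genes, red the 1 higher gene and grey the 30 shown that did not pass, with Abca12 at -2.10 and Abcd2 at 0.77 as the ends of the range (the point of Abcg4 rests on values near the limit of 3 reads).

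In 8 of 38 members (21.1%) WT and Mettl3 KO values lay fully apart, beside 11.5% of all tested genes. These were the 6 called genes and also Abcb9 and Abcb10, which did not pass the test.

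**Figure D3:**
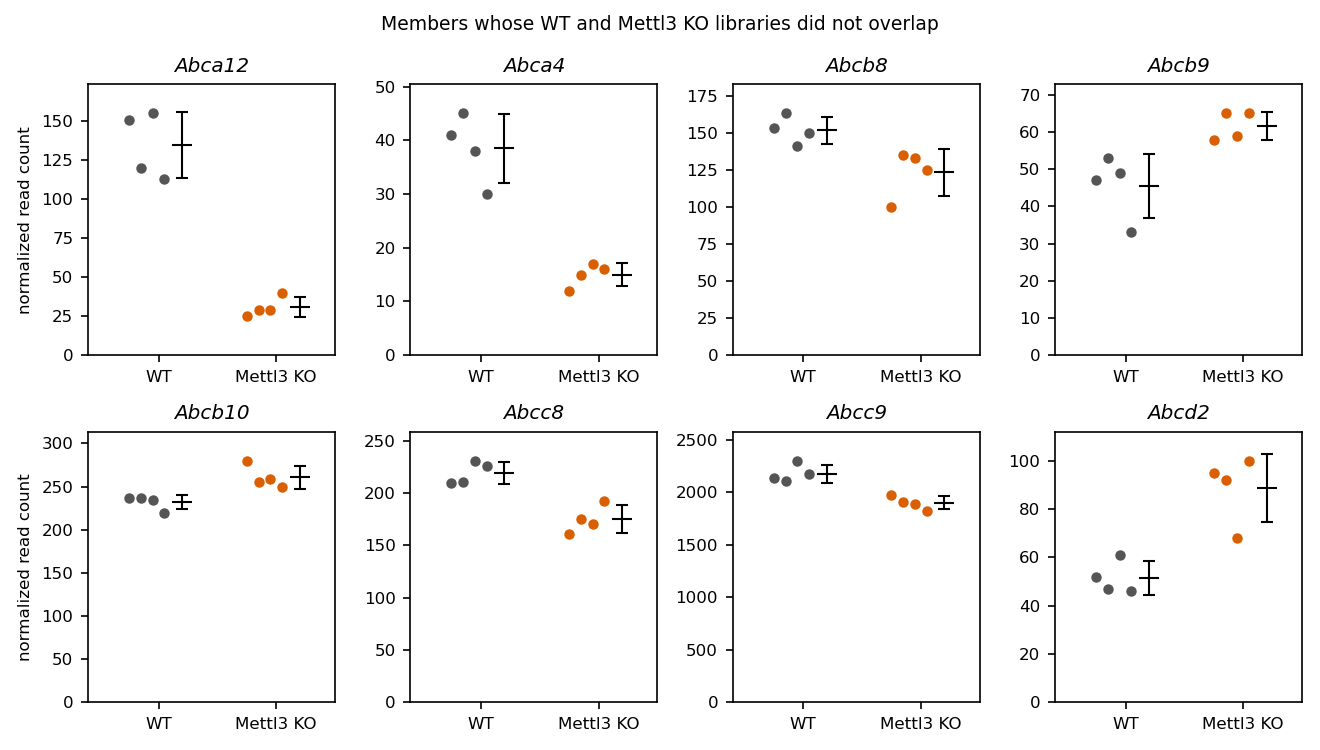
Normalized read counts of the 8 members whose genotypes did not overlap. Points are the 4 libraries of each genotype, and the bar beside them is the mean with its SD. Abca12 falls from between 113 and 155 in WT to between 25 and 40 in Mettl3 KO libraries, whereas Abcc9 moves from between 2105 and 2302 to between 1826 and 1980.

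Among the 11 lipid transporters of subfamily A, 2 were lower (18.2%, beside 3.19% of all tested genes), none was higher and 9 did not pass. Abca12 (ENSMUSG00000050296, mm39 chromosome 1, 71281435 to 71454069, minus strand) is known from skin, where it loads glucosylceramides into the lamellar granules of keratinocytes. It had 151, 120, 155 and 113 normalized read counts in WT hearts and 25, 29, 29 and 40 in Mettl3 KO libraries. The highest Mettl3 KO value was thus well under the lowest WT value. The means were 135 ± 21.3 (SD, n = 4) and 30.8 ± 6.45 (SD, n = 4), or 22.8% of the WT level, with a log2 fold change of -2.10 (SE 0.14, 95% interval -2.40 to -1.80, adjusted p = 6.54e-09, limma). Per kb of exon it ranked as number 28 of the 38 members in WT hearts.

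Abca4 (ENSMUSG00000028125, mm39 chromosome 3, 121838092 to 121973772, plus strand) is known as the retinoid flippase of photoreceptor discs. It had 41, 45, 38 and 30 in WT hearts and 12, 15, 17 and 16 in Mettl3 KO libraries, again without overlap. The means were 38.5 ± 6.35 (SD, n = 4) and 15.0 ± 2.16 (SD, n = 4), and the log2 fold change was -1.30 (SE 0.20, 95% interval -1.71 to -0.89, adjusted p = 0.000171, limma). Its nearest member on the chromosome, Abcd3, lies 229.1 kb away on the opposite strand and had a log2 fold change of 0.06 (adjusted p = 0.555, limma).

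The 9 other members of the subfamily had log2 fold changes between -0.38 and 0.04. Abca2, a lipid transporter of endosomes and lysosomes, was at 325 to 383 in WT hearts and 304 to 330 in Mettl3 KO libraries (log2 fold change -0.12, adjusted p = 0.265, limma). Abca3, the surfactant lipid transporter of lung, was at 141 to 191 and 166 to 186 (log2 fold change 0.03, adjusted p = 0.908, limma). Abca7, a lipid transporter of phagocytes and other cells, was the nearest to the threshold, with 107, 133, 179 and 111 in WT hearts and 115, 106, 88 and 90 in Mettl3 KO libraries. These values overlapped, and the log2 fold change of -0.38 (SE 0.13) did not pass (adjusted p = 0.0753, limma). It did pass without WT replicate 1 (-0.48, adjusted p = 0.0435, limma) and without Mettl3 KO replicate 1 (-0.46, adjusted p = 0.0401, limma). Without WT replicate 3, its highest library, the value was -0.23 (adjusted p = 0.277, limma).

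Abca1, which loads cholesterol and phospholipid onto apolipoprotein A-I, varied between libraries of both genotypes. Its values were 600, 514, 620 and 405 in WT hearts and 578, 540, 430 and 473 in Mettl3 KO libraries. The genotypes overlapped, with a log2 fold change of -0.07 (95% interval -0.28 to 0.14, adjusted p = 0.769, limma). The 8 macrophage markers summed to 1582, 1340, 1533 and 1295 in WT hearts and 1537, 1379, 1317 and 1309 in Mettl3 KO libraries, so WT replicates 1 and 3 were the high ones for both measures and WT replicate 4 the low one. Among the macrophage markers Cd163 was the 1 gene called lower (178 to 255 and 161 to 168, adjusted p = 0.0168, limma), and none was called higher. The part of macrophage content in the level of Abca1 was not tested.

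A run of 5 A-subfamily genes lies head to tail on mm39 chromosome 11, all on the minus strand, in the order Abca8b, Abca8a, Abca9, Abca6 and Abca5 with gaps of 4.8 to 29.8 kb. None of them passed, at log2 fold changes of -0.20, 0.03, 0.04, -0.15 and -0.13. Abca8a was the most abundant of the subfamily, with 634, 601, 680 and 663 in WT hearts and 606, 720, 641 and 664 in Mettl3 KO libraries, and its 95% interval ran from -0.09 to 0.14. These genes are close paralogues, and the authors left out reads that mapped to several places, so their separate values are uncertain. The fibroblast markers rose over the same comparison, with 7 of 8 called higher and sums of 3493 to 3883 in WT hearts and 4398 to 5060 in Mettl3 KO libraries. In bulk tissue, a change in the number of cells of a type and in RNA per cell cannot be told apart. The part of fibroblast content in the levels of these 5 genes was not tested.

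Subfamily C contains the sulfonylurea receptors, which surround the pore of the ATP-sensitive potassium (KATP) channel and make it respond to nucleotides. Of its 7 members 2 were lower (28.6%, beside 3.19% of all tested genes), and these were the pair of receptors. Abcc9 (ENSMUSG00000030249, mm39 chromosome 6, 142533588 to 142648041, minus strand) had 2140, 2105, 2302 and 2174 normalized read counts in WT hearts and 1980, 1909, 1893 and 1826 in Mettl3 KO libraries. The difference was small but every Mettl3 KO library was below every WT library. The means were 2180.2 ± 85.9 (SD, n = 4) and 1902 ± 63.2 (SD, n = 4), and the log2 fold change was -0.20 (SE 0.04, 95% interval -0.27 to -0.12, adjusted p = 0.00152, limma).

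Abcc8 (ENSMUSG00000040136, mm39 chromosome 7, 45753947 to 45829457, minus strand), the receptor known from pancreatic beta cells and mouse atria, had 210, 211, 231 and 226 in WT hearts and 161, 175, 171 and 193 in Mettl3 KO libraries. Here too the genotypes did not overlap. The means were 219.5 ± 10.6 (SD, n = 4) and 175 ± 13.4 (SD, n = 4), and the log2 fold change was -0.33 (SE 0.07, 95% interval -0.48 to -0.17, adjusted p = 0.00628, limma). The 4 atrial markers were higher in Mettl3 KO hearts, with sums of 320, 270, 175 and 319 over the WT replicates and of 485, 704, 785 and 1022 over the Mettl3 KO ones. Nppa was the largest part of each sum, at 282, 243, 175 and 292 in WT hearts and 452, 410, 508 and 481 in Mettl3 KO libraries. In Mettl3 KO replicate 1, Bmp10 (0), Sln (10) and Myl7 (23) lay within the WT range, so only Nppa was higher there. Abcc8 was highest in the library with the highest sum among Mettl3 KO hearts, and in the library with the lowest sum among WT hearts. The part of atrial content in the levels of Abcc8 and Abcc9 was not tested. The counts sum all exons, so splice forms of either receptor were not separated. Abcc8 shares its strand and position with a gene model of low level, Gm45487, and reads over both were left out by the authors.

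The pore genes of these channels lie beside their receptors on the same strand. Kcnj11 is 3758 bases from Abcc8 and Kcnj8 is 16247 bases from Abcc9. Neither pore gene passed. Kcnj11, the pore gene of the heart muscle cell membrane, had 154, 172, 168 and 174 in WT hearts and 150, 173, 176 and 195 in Mettl3 KO libraries (log2 fold change 0.05, 95% interval -0.12 to 0.22, adjusted p = 0.811, limma). Kcnj8, the pore gene of vascular muscle and pericytes, had 125, 132, 128 and 131 in WT hearts and 96, 115, 127 and 105 in Mettl3 KO libraries, with overlapping ranges (log2 fold change -0.23, 95% interval -0.42 to -0.03, adjusted p = 0.156, limma). Whether a receptor changed more than its pore gene was not tested. None of the 8 pericyte and smooth muscle markers, a list that includes Kcnj8, passed, and they summed to 2717 to 2917 in WT hearts and 2616 to 2846 in Mettl3 KO libraries.

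**Figure D4:**
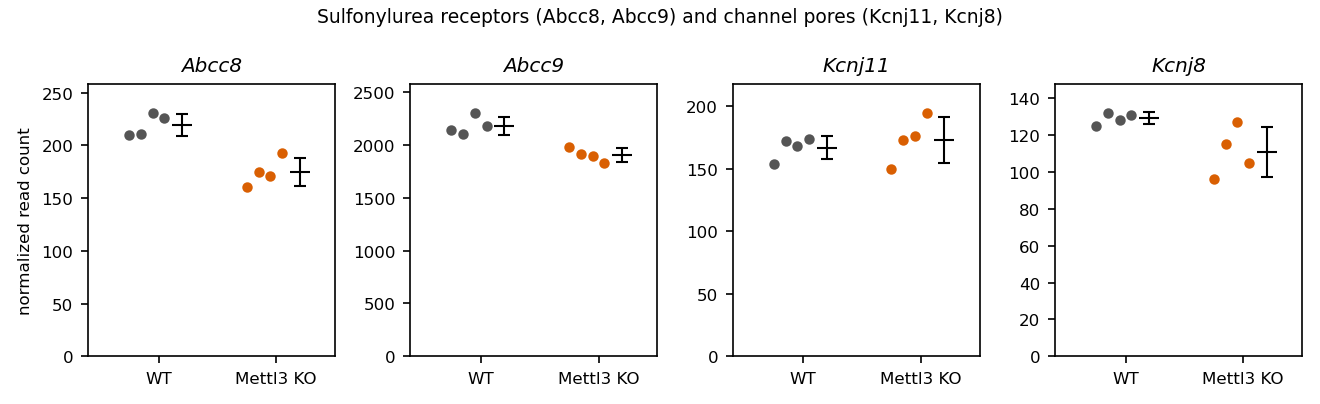
Normalized read counts of the sulfonylurea receptor genes Abcc8 and Abcc9 and of the channel pore genes Kcnj11 and Kcnj8. Points are the 4 libraries of each genotype with the mean and SD beside them. The receptors part the genotypes, at 161 to 193 against 210 to 231 for Abcc8, while both pore genes overlap. The log2 fold change was -0.23 for Kcnj8 and -0.20 for its receptor Abcc9, and a difference between receptor and pore was not tested.

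The exporters of subfamily C did not pass. Abcc5, an exporter of cyclic nucleotides and other organic anions, had 412, 414, 415 and 412 in WT hearts and 411, 451, 392 and 435 in Mettl3 KO libraries, with a 95% interval of -0.08 to 0.14. Abcc1, an exporter of glutathione conjugates, had a log2 fold change of 0.08 (95% interval -0.04 to 0.20). Abcc4, which exports cyclic AMP, had a log2 fold change of -0.25 (95% interval -0.45 to -0.04, adjusted p = 0.154, limma), with 130, 133, 176 and 122 in WT hearts and 123, 116, 111 and 118 in Mettl3 KO libraries. Its WT replicate 3 stood above the others, and without it the log2 fold change was -0.13 (adjusted p = 0.473, limma). The low members Abcc3 and Abcc10 had wider intervals, of -0.41 to 0.59 and -0.16 to 0.53.

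Subfamily D imports very long-chain and branched fatty acyl-CoA into peroxisomes. Of its 4 members 1 was higher (25.0%, beside 4.72% of all tested genes). Abcd2 (ENSMUSG00000055782, mm39 chromosome 15, 91030074 to 91076002, minus strand), a half-transporter of the peroxisomal membrane, had 52, 47, 61 and 46 in WT hearts and 95, 92, 68 and 100 in Mettl3 KO libraries. Mettl3 KO replicate 3 was the lowest of its group and still above each WT library. The means were 51.5 ± 6.86 (SD, n = 4) and 88.8 ± 14.2 (SD, n = 4), or 172% of the WT level, with a log2 fold change of 0.77 (SE 0.13, 95% interval 0.49 to 1.04, adjusted p = 0.000667, limma).

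None of the other D members passed. Abcd3 was the most abundant and among the tightest, with 484, 494, 502 and 508 in WT hearts and 506, 511, 532 and 522 in Mettl3 KO libraries (log2 fold change 0.06, 95% interval -0.04 to 0.16). Abcd4, which exports cobalamin from lysosomes, had a log2 fold change of -0.02 (95% interval -0.26 to 0.22). Of 16 tested peroxisomal partner genes 1 passed (6.25%, beside 7.91% of all tested genes), Amacr, the racemase for branched acyl-CoA, at 0.34 (SE 0.09, adjusted p = 0.0261, limma). Amacr did not pass without WT replicate 1, 2 or 3 or Mettl3 KO replicate 1, 2 or 4, with adjusted p between 0.0520 and 0.0757.

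Subfamily B joins drug exporters of the cell surface with half-transporters of mitochondria and lysosomes. Of its 8 members 1 was lower (12.5%, beside 3.19% of all tested genes). Abcb8 (ENSMUSG00000028973, mm39 chromosome 5, 24598661 to 24615052, plus strand), a transporter of the inner mitochondrial membrane involved in iron handling, had 153, 163, 141 and 150 in WT hearts and 100, 135, 133 and 125 in Mettl3 KO libraries. The groups did not overlap, although the highest Mettl3 KO value was close to the lowest WT value. The means were 152 ± 9.07 (SD, n = 4) and 123 ± 16.1 (SD, n = 4), and the log2 fold change was -0.31 (SE 0.09, adjusted p = 0.0497, limma). This call was marginal and failed in 10 of 17 alternatives, 7 of which left out 1 library. Without WT replicate 1, 2 or 4 the adjusted p was 0.112, 0.158 and 0.0987, and without Mettl3 KO replicate 1, 2, 3 or 4 it was 0.147, 0.0538, 0.0686 and 0.0995. Without Mettl3 KO replicate 1, its lowest library, the log2 fold change was -0.21.

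The other mitochondrial members did not pass. Abcb10, a transporter of the inner mitochondrial membrane linked to heme synthesis, had 237, 237, 235 and 220 in WT hearts and 280, 255, 259 and 250 in Mettl3 KO libraries. These values did not overlap, but the log2 fold change of 0.17 (SE 0.06, adjusted p = 0.122, limma) missed the threshold. Abcb6, a porphyrin transporter, was low, with 8 to 11 in WT hearts and 5 to 10 in Mettl3 KO libraries. Of 21 partner genes of heme and iron-sulfur synthesis 2 passed (9.52%, beside 7.91% of all tested genes and 1440 of 14392 protein-coding ones). Cpox, an enzyme of heme synthesis, was lower at -0.34 (SE 0.07, adjusted p = 0.00463, limma), and Glrx5, which hands on iron-sulfur clusters, was higher at 0.37 (SE 0.09, adjusted p = 0.0136, limma). Glrx5 did not pass without WT replicate 1 (adjusted p = 0.0594, limma) or Mettl3 KO replicate 2 (adjusted p = 0.0513, limma).

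Abcb9, a peptide transporter of lysosomes, was the other member with parted groups and no call. It had 47, 53, 49 and 33 in WT hearts and 58, 65, 59 and 65 in Mettl3 KO libraries, a log2 fold change of 0.45 (SE 0.15, adjusted p = 0.0584, limma). The related antigen peptide transporters Tap1 and Tap2, family members under other symbols, overlapped between the genotypes at 0.09 (adjusted p = 0.797, limma) and 0.08 (adjusted p = 0.769, limma). Cftr, also of this kind, was at 0 to 6 in each library and too low to compare.

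The surface exporters of subfamily B are encoded side by side on mm39 chromosome 5, plus strand, as Abcb1a, Abcb1b and Abcb4 with gaps of 49.6 and 27.4 kb. Abcb1a and Abcb1b together do the work of the human P-glycoprotein, the drug pump of endothelial barriers. Abcb1a had 294, 261, 262 and 257 in WT hearts and 276, 223, 214 and 224 in Mettl3 KO libraries. In each genotype replicate 1 was well above the other libraries, and the log2 fold change of -0.20 (SE 0.08, adjusted p = 0.122, limma) did not pass, although without Mettl3 KO replicate 1 it was -0.28 (adjusted p = 0.0119, limma). When WT replicate 1 was left out instead, it was -0.16 (adjusted p = 0.333, limma). Abcb1b had a log2 fold change of -0.25 (95% interval -0.52 to 0.02, adjusted p = 0.280, limma). Near-identical stretches of this pair make their separate counts uncertain. Of the 8 endothelial markers 4 were lower, with sums of 5172 to 5361 in WT hearts and 4466 to 4867 in Mettl3 KO libraries, and their part in the values of Abcb1a was not tested. Abcb4, the phosphatidylcholine floppase of bile, had 238, 304, 249 and 255 in WT hearts and 256, 255, 275 and 278 in Mettl3 KO libraries (log2 fold change 0.03, 95% interval -0.12 to 0.18).

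The members without membrane domains did not pass. Abce1, which splits ribosomes after termination, had 461, 470, 412 and 460 in WT hearts and 428, 439, 413 and 403 in Mettl3 KO libraries (log2 fold change -0.10, 95% interval -0.21 to 0.02). Abcf1, which acts in translation initiation, had 407, 431, 412 and 438 in WT hearts and 428, 460, 450 and 439 in Mettl3 KO libraries (log2 fold change 0.07, 95% interval -0.03 to 0.18). Abcf2 had 209, 269, 244 and 234 in WT hearts and 246, 239, 237 and 227 in Mettl3 KO libraries, with an interval of -0.16 to 0.15. Abcf3 had an interval of -0.07 to 0.27. Of 11 partner genes in ribosome recycling and translation control none passed by limma, where 2 had an unadjusted p under 0.05 (beside 4184 of all 20313 tested genes).

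None of the 4 members of subfamily G passed by limma, and none had an unadjusted p under 0.05. Abcg2, the urate and drug exporter of endothelial and stem cells, had 162, 140, 164 and 167 in WT hearts and 159, 147, 144 and 161 in Mettl3 KO libraries (log2 fold change -0.05, 95% interval -0.22 to 0.12). Abcg1, which moves cholesterol to lipoprotein particles, had 58, 68, 62 and 35 in WT hearts and 54, 36, 52 and 43 in Mettl3 KO libraries (log2 fold change -0.24, 95% interval -0.61 to 0.13). Its log2 fold change was -0.445 without WT replicate 4 (adjusted p = 0.11, limma) and -0.128 without Mettl3 KO replicate 2 (adjusted p = 0.795, limma). Abcg3 was at 9 to 16 in WT hearts and 8 to 22 in Mettl3 KO libraries.

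Genes that work with the sterol transporters were read from a separate list. Of 18 tested genes of sterol efflux and uptake 3 were higher and 1 was lower (22.2%, beside 7.91% of all tested genes, 4.72% higher and 3.19% lower). Apoe, an acceptor of cellular cholesterol, had 273, 259, 291 and 276 in WT hearts and 386, 307, 354 and 344 in Mettl3 KO libraries (log2 fold change 0.34, SE 0.07, adjusted p = 0.00262, limma). Cyp27a1, which oxidises cholesterol, was higher at 0.31 (adjusted p = 0.0390, limma) and the lipoprotein receptor Lrp1 at 0.22 (adjusted p = 0.00913, limma). Scarb1, the receptor for high-density lipoprotein, was lower at -0.30 (adjusted p = 0.0195, limma). Cyp27a1 did not pass in 8 of 17 alternatives, 6 of them without 1 library (WT replicate 1 or 2, or any Mettl3 KO replicate, with adjusted p between 0.0552 and 0.118). Lrp1 did not pass without WT replicate 2 or 4 or Mettl3 KO replicate 3 (adjusted p of 0.0585, 0.0554 and 0.0600), and Scarb1 did not without WT replicate 1 or 2 or Mettl3 KO replicate 2 (0.0697, 0.0620 and 0.0711).

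Among 7 partner genes of cobalamin handling Mmut, the mitochondrial methylmalonyl-CoA mutase, was higher at 0.26 (SE 0.04, adjusted p = 0.000435, limma). Among 5 tested regulators of drug response Ahr, the aryl hydrocarbon receptor, was lower at -0.40 (SE 0.10, adjusted p = 0.0146, limma), though not without WT replicate 1 (adjusted p = 0.0519, limma) or Mettl3 KO replicate 2 (adjusted p = 0.0620, limma). Over all partner lists 9 of 83 tested genes passed (10.8%), 6 higher and 3 lower, a share near that of all tested genes (7.91%) and of the protein-coding ones (1440 of 14392). This count fell to 4 without either WT replicate 1 or Mettl3 KO replicate 2, and to 5 when WT replicate 2 was left out.

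Sequence features that had no part in choosing the members were then described. METTL3 acts at a short consensus of which GGACT in DNA letters is the best known form, so this word was counted on the sense strand of the principal transcript of each gene in GENCODE M21. In the last 1000 bases of the transcript 21 of 38 members had at least 1 GGACT, beside 62.9% of 13525 tested protein-coding genes. None of the 6 called members had one there, while 21 of the 32 others did. Over the whole transcript the called members were not short of it, at a median of 1.01 per kb beside 1.06 over all 38 members. Across the table, 62.6% of protein-coding genes called higher, 61.5% of those called lower and 63.0% of those that did not pass held the word in this window. A match is a description of letters and no methylated site, and the annotated transcript end may not be the one used in heart.

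Promoter sequences from RefSeq (GRCm38.p6), of 250 bases before and 50 bases after an annotated start, matched 27 of the 38 members with 33 windows. Among the called genes Abca12, Abca4 and Abcc9 had one, and they are shown because these 3 genes were lower together. Coordinates of this build are not those of the deposited table. Capitals mark matches on either strand to any of 4 words. TATAAA is the core of the classical box before many start sites. CACGTG is the palindrome that helix-loop-helix factors prefer. CATTCC is known as the binding word of TEAD factors, and AGATAA as that of GATA factors. Each window had a single match, so no matches overlap.
Abca12, chr1:71414861-71415160, minus strand: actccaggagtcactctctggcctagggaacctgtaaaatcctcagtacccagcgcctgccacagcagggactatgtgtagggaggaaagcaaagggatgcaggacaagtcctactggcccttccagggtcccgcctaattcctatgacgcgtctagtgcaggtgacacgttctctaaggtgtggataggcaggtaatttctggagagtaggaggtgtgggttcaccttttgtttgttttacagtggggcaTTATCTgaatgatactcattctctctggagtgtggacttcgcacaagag
Abca4, chr3:122044210-122044509, plus strand: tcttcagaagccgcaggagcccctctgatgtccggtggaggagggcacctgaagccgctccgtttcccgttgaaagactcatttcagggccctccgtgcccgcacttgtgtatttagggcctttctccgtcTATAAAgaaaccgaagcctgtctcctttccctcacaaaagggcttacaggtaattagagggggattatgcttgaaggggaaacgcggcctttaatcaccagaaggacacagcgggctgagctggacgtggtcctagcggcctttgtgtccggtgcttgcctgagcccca
Abcc9, chr6:142702225-142702524, minus strand: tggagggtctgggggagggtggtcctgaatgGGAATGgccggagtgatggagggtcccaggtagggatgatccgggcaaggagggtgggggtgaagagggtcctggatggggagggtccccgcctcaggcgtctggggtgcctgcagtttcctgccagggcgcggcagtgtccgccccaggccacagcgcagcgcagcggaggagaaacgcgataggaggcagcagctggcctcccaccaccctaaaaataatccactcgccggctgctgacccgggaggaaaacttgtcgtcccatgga

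Each of these windows held a different word, so the 3 promoters had none of the 4 words in common. Abca12 had AGATAA (as TTATCT), Abca4 had TATAAA and Abcc9 had CATTCC (as GGAATG). Over all 32851 windows TATAAA occurred in 13.6%, CACGTG in 7.15%, CATTCC in 14.7% and AGATAA in 11.2%, and among the 33 windows of members in 5, 5, 4 and 2. The windows also differed in base composition, with 51.3% G and C and 6 CpG for Abca12, 56.3% and 15 for Abca4, and 65.7% and 16 for Abcc9. The median window of a member had 62.0% G and C and 20 CpG, and the median of all windows 52.7% and 7.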

How the data were processed

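Stranded total-RNA libraries from heart tissue were sequenced by the study as single-end reads. Per the study's methods and the submitters' processing notes, the authors trimmed reads with Trimmomatic (version 0.39), aligned them to mm39 with STAR (version 2.7.11a) and removed duplicates with Picard (version 3.1.1), and also dropped ribosomal, mitochondrial and multi-mapping reads. The authors then counted exons by strand with featureCounts (version 2.0.4) and normalized with DESeq2 (version 1.36.0). Removal of single-end duplicates caps the reads per position and so can lower abundant genes, and removal of multi-mapping reads lowers paralogues. The values that the authors deposited are normalized scores, that is gene counts divided by library factors and rounded to whole numbers, and not raw counts, so no count model was used. Columns were matched to samples by their names.

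Genes with a mean of at least 1 over the 8 libraries (20313 of 23045) were tested on log2(value + 1) with limma (version 3.58.1, R version 4.3.3) with a mean-variance trend, genotype as the only term, two-sided, and Benjamini-Hochberg adjustment over all of them at 0.05. Log2 fold changes are on this scale, Mettl3 KO minus WT, and understate changes of low genes. Library factors and reads were recovered by maximum likelihood from the spacing of low whole numbers. Summaries and plots used Python (version 3.11.15), pandas (version 2.3.3) and matplotlib (version 3.10.9). On simulated data for this comparison with 200 of 19826 genes changed by 1 on the log2 scale, 62% were recovered, and 96.6% of those with a mean of at least 20. The simulation gave every gene the same dispersion of 0.005. It therefore does not show the recovery of more variable genes or of smaller changes.

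The members, the partner and marker lists and the tests were chosen with earlier results of these data known. By rule, values in every library were given for members with an adjusted p under 0.05, for the 2 most abundant members of each subfamily, and for those next to the mean of 1. Named partners were those that passed (at most 4 per list), the KATP pore genes and family members with other symbols. Abca7, Abcb1a, Abcb9, Abcb10 and Abcc4 were given in full after their values were seen. Alternatives were 2 pseudocounts, 2 filters, 2 scalings, voom, a robust trend, a replicate block and leaving out each library. Of the 38 members 2 are counted in all totals but are not reported here singly.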

Additional observations from a re-analysis of the deposited data

Results flagged for a closer look

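In 3 of 78 groups examined (36 members, Mettl3, the library total and the recovered reads in each genotype) 1 library lay far from the other 3, by Dixon's ratio of the gap to the whole range against its 95% critical value for 4 samples. Chance alone marks about 1 in 20 groups, or 3.9 here. Abcb1a, the drug pump of endothelial barriers, had such a library in both genotypes. WT replicate 1 was at 294 with the others at 257 to 262 (ratio 0.865), and Mettl3 KO replicate 1 was at 276 with the others at 214 to 224 (ratio 0.839). Abcb10, the mitochondrial transporter linked to heme synthesis, was at 220 in WT replicate 4 with the others at 235 to 237 (ratio 0.882).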

How the results depend on the processing

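Abca12, Abca4, Abcd2, Abcc8 and Abcc9 kept their direction and their adjusted p under 0.05 in all 17 alternatives, with log2 fold changes of -2.23 to -2.01, -1.41 to -1.20, 0.70 to 0.89, -0.38 to -0.29 and -0.22 to -0.17. The number of members called was 5 to 7, without 1 library also 5 to 7. Abcb8 did not pass with a pseudocount of 0.5 (adjusted p = 0.0530) or with voom (adjusted p = 0.0526), and of the 32 members that were not called 11 changed sign in some alternative. Calls over all genes numbered 1607 and ranged from 1005 (without Mettl3 KO replicate 3) to 1593 when 1 library was left out. Partner genes called ranged from 4 to 9 when 1 library was left out. No scaling moved the median log2 fold change of all genes beyond -0.02. Same-numbered libraries deviated together only weakly, with correlations of 0.05, 0.04, -0.04 and 0.09 over 12027 genes. The labels do not say whether these libraries were paired, and weak correlations cannot settle it. With the replicate number as a block, 5 members, 8 partner genes and 1346 genes in all were called, and Abcb8 had an adjusted p of 0.0678. Members under about 20 normalized read counts (Abcb6, Abcc3, Abcg3 and Abcg4) had intervals too wide to exclude changes of the size seen in Abcb8. The same held for some more abundant members without a call. Examples were Abca8b (95% interval -0.365 to -0.036), Abcb1a (-0.361 to -0.042), Abcc4 (-0.454 to -0.037) and Abcg1 (-0.613 to 0.133). A missing call thus does not show that a member was unchanged.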
